A study of Sus scrofa with 226 samples.

Results

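GNG8, LTBP1, FAIM2, RBP4, TMEM255A, PARM1 and ARG1, genes not commonly used to describe sensory neurons, were followed through single neurons of the pig dorsal root ganglion (DRG). These 7 genes, of 30420 in the count table, were picked because earlier work on the same cells placed them with ADCYAP1, so their relation to ADCYAP1 is given here as a description and carries no test. All 7 passed the filter on low counts in the 3 comparisons of summed cells. The identifiers in the files are ENSSSCG00000022068 for GNG8, ENSSSCG00000008510 for LTBP1, ENSSSCG00000000206 for FAIM2, ENSSSCG00000010479 for RBP4, ENSSSCG00000012607 for TMEM255A, ENSSSCG00000008966 for PARM1 and ENSSSCG00000004195 for ARG1.

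The study recorded cultured DRG neurons with a patch pipette, then harvested each cell into its own tube for Smart-Seq2, a full-length RNA-seq method without molecular identifiers (Patch-seq). It holds neurons of 10 wild-type (WT) pigs aged 11, 12, 14, 15, 17, 18 or 20 weeks, from ganglia of the neck, chest and lower back, of which 24 were kept in culture for 3 days, 78 for 2 days and the rest for 1 day. Age and day together make 16 groups of 2 to 38 neurons, and no animal was treated. The study set out to find markers of mechano-insensitive C-fibres, the silent nociceptors linked to neuropathic pain. The deposited counts of a neuron summed to between 109726 and 5506278, with a median of 740524.

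ADCYAP1 encodes PACAP, a neuropeptide that peptidergic nociceptors release and that acts through receptors coupled to G proteins. Neurons with ADCYAP1 at 200 CPM or more (counts scaled to the total of the cell) were called ADCYAP1-high, and they were the larger class in the series as a whole and present in all 10 animals. Of the 87 other neurons, 56 had OSMR, the oncostatin M receptor of another C-fibre class, at 100 CPM or more (OSMR-high), and 31 were below both limits. Of these 31, 15 had ADCYAP1 at 20 CPM or more (48.4%). Median total counts were 697533 in ADCYAP1-high and 803578 in the other neurons. Cells were picked singly under the microscope and no doublet caller was run. The summed level of 8 general sensory neuron genes ran from 3882 to 25680 CPM in ADCYAP1-high neurons and from 988 to 28050 CPM in the others, and RBFOX3 alone of the 8 was at 0 in over 50% of the cells of each class. Of 6 peptidergic C-fibre genes other than ADCYAP1 and the genes described here, 5 were called higher in ADCYAP1-high neurons by edgeR, at an adjusted p under 0.05 over all genes (3.07% of all genes tested were higher). All 5 genes of the OSMR and SST class were called lower (1.54% of all genes were).

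The proteins fall into 4 kinds. RBP4 and LTBP1 are secreted: RBP4 carries retinol in the blood, and LTBP1 is a matrix protein that binds latent TGF-beta and holds it until it is activated. GNG8 is a gamma subunit of heterotrimeric G proteins, best known from olfactory and vomeronasal neurons. FAIM2, TMEM255A and PARM1 sit in membranes: FAIM2 protects neurons from death signalled by the Fas receptor, PARM1 is a mucin-like glycoprotein first described in prostate, and TMEM255A has no settled function. ARG1 is the cytosolic arginase that splits arginine into ornithine and urea, and it is widely used as a marker of mouse macrophages.

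A gene was called detected in a neuron at 20 CPM or more. Because the counts are not corrected for transcript length, levels and shares are compared between cells for 1 gene at a time and not between genes. RBP4 separated the classes with almost no exception among the other neurons. In ADCYAP1-high neurons RBP4 ranged from 0 to 1139 CPM with a median of 44.99 CPM, and it was detected in 83 of them (59.7%, 95% exact Clopper-Pearson interval 51.1 to 67.9%). In the other neurons the highest RBP4 value was 31.4 CPM, and 2 of 87 passed 20 CPM (2.30%, interval 0.280 to 8.06%). No OSMR-high neuron did. Taking 3 counts as the limit of a count of 0, 0 of 56 allows a share of up to 5.36%, and the exact interval reaches 6.38%. The intervals cover counting error only.

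LTBP1 was detected in 75.5% of ADCYAP1-high neurons (interval 67.5 to 82.4%) and in 12 others (13.8%, interval 7.34 to 22.9%). Its median was 119.6 CPM in the former and 0.758 CPM in the latter, where the highest cell reached 335 CPM. GNG8 was detected in 81 ADCYAP1-high neurons (58.3%, interval 49.6 to 66.6%) and in 9 others (10.3%, interval 4.84 to 18.7%). The 58 ADCYAP1-high neurons below 20 CPM included 24 with no GNG8 count at all, while the highest cell reached 1255 CPM. So RBP4, LTBP1 and GNG8 were near 0 in most other neurons and spread over a wide range, from 0 upward, inside the ADCYAP1 class.

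FAIM2 was detected in 82.7% of ADCYAP1-high neurons (interval 75.4 to 88.6%) and in 14 others (16.1%, interval 9.09 to 25.5%). Those 14 were uneven: 12 belonged to the 31 neurons below both limits (38.7%, interval 21.9 to 57.8%) and 2 to the 56 OSMR-high neurons (3.57%, interval 0.436 to 12.3%). Of the 12, 7 had ADCYAP1 at 100 CPM or more, just under the limit of its class, where 8 of the 31 lay. GNG8 was detected in 7 of 31 (22.6%) against 2 of 56, and 4 of the 7 had ADCYAP1 at 125.4 to 154.2 CPM. In the 23 neurons below both limits with ADCYAP1 under 100 CPM, FAIM2 was detected in 5 (21.7%) and GNG8 in 3 (13.04%). These class shares were not tested against each other.

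TMEM255A, PARM1 and ARG1 were also detected in many neurons outside the ADCYAP1 class, at lower median levels. TMEM255A was detected in 94.96% of ADCYAP1-high neurons and in 62 others (71.3%), with medians of 531 and 61.8 CPM. PARM1 was detected in 89.2% and in 36 others (41.4%), with medians of 175.4 and 13.6 CPM. ARG1 was detected in 87.8% and in 58 others (66.7%), with medians of 1318 and 91.8 CPM. TMEM255A and ARG1 were detected in 83.9% and 78.6% of OSMR-high neurons, and in 48.4% and 45.2% of the neurons below both limits. PARM1 had the other order, with 33.9% of OSMR-high neurons and 54.8% of those below both limits, and all 8 of the latter with ADCYAP1 at 100 CPM or more had it.

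**Figure D1:**
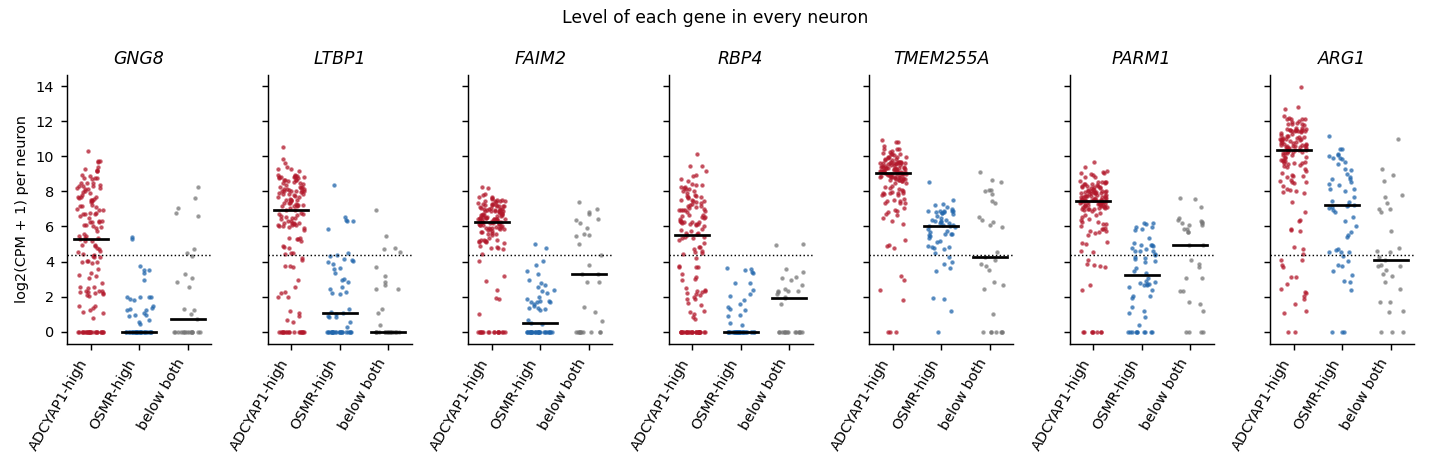
Level of each gene in every neuron, on the log2(CPM + 1) scale, for ADCYAP1-high neurons, 56 OSMR-high neurons and 31 below both limits; each point is a cell, the black bar is the median, and the dotted line is the detection limit of 20 CPM. RBP4 has no OSMR-high neuron above the line, whereas TMEM255A and ARG1 have most of them above it.

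The difference held animal by animal for 6 of the 7 genes. In the 9 animals with at least 3 cells in each class, the detected share was higher in ADCYAP1-high neurons in 9 of 9 for GNG8, LTBP1, FAIM2, RBP4, TMEM255A and PARM1, and in 8 of 9 for ARG1. For RBP4 the share per animal was 61.5% ± 14.0 (SD, n = 10) in ADCYAP1-high neurons and 2.04% ± 4.38 (SD, n = 9) in the others. For GNG8 it was 56.8% ± 10.48 and 10.2% ± 9.36, for LTBP1 77.2% ± 18.6 and 11.8% ± 12.8, and for FAIM2 83.8% ± 14.9 and 18.3% ± 14.6 (same n). The ranges over animals did not overlap for these 4 genes: the lowest ADCYAP1-high share of GNG8 was 40% and the highest share among other neurons 25%. They overlapped for TMEM255A, PARM1 and ARG1. How many of all genes also do not overlap between the classes was not counted, for these shares or for the sums that follow.

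Counts summed per animal and class showed the same split. Here fewer cells with a transcript and less transcript per cell cannot be told apart. RBP4 sums ran from 44.3 to 210.9 CPM in ADCYAP1-high neurons (median 99.1 CPM, 10 animals) and from 0 to 6.55 CPM in the others (median 1.90 CPM, 9 animals). The 2 ranges did not overlap, and the fitted log2 difference, ADCYAP1-high minus other, was 5.93 ± 0.56 (SE). LTBP1 sums ran from 97.95 to 402 CPM against 1.33 to 32.8 CPM, a log2 difference of 4.56 ± 0.38 (SE). GNG8 sums ran from 46.3 to 252 CPM against 0.490 to 62.4 CPM, a log2 difference of 4.14 ± 0.65 (SE). The 2 GNG8 ranges met in 1 animal, number 5, whose other neurons gave the 62.4 CPM. The size of the GNG8 difference moved with the settings: it was 2.82 ± 1.17 at 1 day of culture alone, 5.30 ± 0.91 with the ADCYAP1 limit at 100 CPM, 2.80 ± 0.55 with it at 400 CPM and 3.29 ± 0.62 without the animal block (SE). RBP4 was at 4.72 ± 0.59 with the limit at 400 CPM.

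Among the membrane proteins the log2 differences were 2.82 ± 0.43 for FAIM2, 2.78 ± 0.14 for TMEM255A and 2.94 ± 0.21 for PARM1 (SE). FAIM2 was at 4.13 ± 0.63 at 1 day alone, 3.68 ± 0.48 with the ADCYAP1 limit at 100 CPM and 2.22 ± 0.45 without the animal block. FAIM2 sums ran from 48.4 to 127.9 CPM in ADCYAP1-high neurons and from 2.43 to 59.5 CPM in the others, and PARM1 sums from 93.4 to 308.8 CPM and from 11.9 to 96.3 CPM, so both overlapped. TMEM255A sums ran from 461 to 976 CPM in ADCYAP1-high neurons and from 63.7 to 170.7 CPM in the others, without overlap. ARG1 differed by 2.36 ± 0.59 (SE), and its sums overlapped: 17.8 to 3430 CPM against 99.95 to 455 CPM. For comparison, ADCYAP1 itself differed by 6.30 ± 0.30, and the median over all 23972 genes tested was 0.00.

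One animal set the overlap of the ARG1 sums. The ARG1 shares overlapped without it too, with 63.64% in ADCYAP1-high neurons of animal 2 and 82.35% in other neurons of animal 4. In animal 1, aged 11 weeks, ARG1 was detected in 1 of 5 ADCYAP1-high neurons (20.0%) but in 7 of its 8 other neurons (87.5%). Its ADCYAP1-high sum was 17.8 CPM and its other sum 323 CPM, the reverse of the 8 remaining animals with both classes. Without animal 1 the ARG1 log2 difference was 2.79, and at 1 day of culture alone, with animal 1, it was 1.36 ± 0.63 (SE). The other animal of 11 weeks had ARG1 at 752 CPM in ADCYAP1-high neurons.

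**Figure D2:**
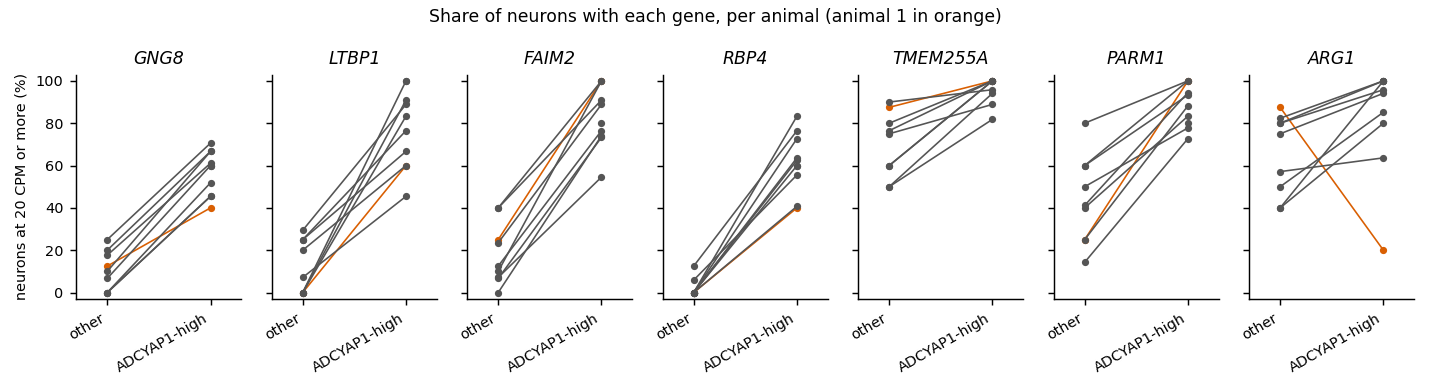
Share of neurons at 20 CPM or more in each animal (percent), other neurons on the left and ADCYAP1-high neurons on the right of each panel; lines join the 2 classes of an animal with at least 3 cells in each, and animal 1 is orange. Lines rise in all 9 animals for 6 genes, and the ARG1 line of animal 1 falls from 87.5% to 20.0%.

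Detected shares just below and just above the ADCYAP1 limit of 200 CPM were close for some genes and further apart for others, in few cells. Just outside the limit, 11 neurons had ADCYAP1 between 100 and 200 CPM, and just inside it 10 had between 200 and 400 CPM. RBP4 was detected in 9.09% of the former (1 cell) and 50% of the latter (5 cells), and GNG8 in 54.5% and 50%. At 400 to 1000 CPM of ADCYAP1, RBP4 was detected in 37.04% of 27 neurons. The shares of these bins were not tested against each other. FAIM2 was detected in 72.7% and 60%, PARM1 in 90.9% and 70%, and LTBP1 in 27.3% and 40%. Below 20 CPM of ADCYAP1, in 59 neurons, GNG8 and FAIM2 were each detected in 3.39%. At 2000 CPM or more of ADCYAP1, in 56 neurons, FAIM2 was detected in 96.4%, LTBP1 in 94.6%, RBP4 in 76.8% and GNG8 in 69.6%. LTBP1 was detected in 29.4% at 20 to 100 CPM of ADCYAP1, near its share at 100 to 200. Above the limit its medians rose: 2.47 CPM at 200 to 400, 21.1 CPM at 400 to 1000, 89.5 CPM at 1000 to 2000 and 259 CPM above that. The medians of PARM1, TMEM255A and ARG1 rose there too, that of PARM1 from 53 CPM at 200 to 400 to 248 CPM at 2000 or more. The share of GNG8 stayed between 45.7% and 69.6% from 100 CPM upward.

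Spearman correlations with ADCYAP1 across the cells of an animal gave the same picture. They are descriptions over 10 animals whose points share library preparation and depth. The mean over animals was 0.76 ± 0.13 for PARM1, 0.69 ± 0.19 for TMEM255A, 0.67 ± 0.14 for LTBP1, 0.65 ± 0.19 for FAIM2, 0.65 ± 0.15 for RBP4, 0.49 ± 0.38 for ARG1 and 0.48 ± 0.22 for GNG8 (SD, n = 10). Neighbours in this order lay within each other's SD. Inside the ADCYAP1-high class, over 8 animals with at least 6 such cells, the mean was 0.58 for PARM1, 0.51 for LTBP1, 0.42 for TMEM255A, 0.39 for FAIM2, 0.36 for ARG1, 0.34 for RBP4 and 0.13 for GNG8. PARM1 was positive in 8 of 8 animals there and GNG8 in 5 of 8.

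The genes most like each member were taken by mean within-animal Spearman correlation over 10 animals, among 7633 genes with a symbol and 20 CPM in at least 20 cells. ADCYAP1 itself ranked first for LTBP1, RBP4, TMEM255A and PARM1, and PARM1 ranked first for FAIM2 (0.68) and for ADCYAP1 (0.76). LTBP1 was followed by STXBP5L (0.64), which codes for a tomosyn of the release machinery. RBP4 was followed by NUPR1 (0.61). GNG8 stood with RBP4 (0.60) and CRABP1 (0.54), which binds retinoic acid in the cell. TMEM255A was followed by PGM2 (0.63) and RTN1 (0.62), PARM1 by PRKAR1A (0.70) and FAIM2 (0.68), and FAIM2 by ADCYAP1 (0.65) and SELENOM (0.64). ARG1 had none of the other 6 genes nor ADCYAP1 among its first 3, which were RASSF1 (0.70), EIF6 (0.59) and GMFB (0.59).

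The 7 genes were mostly carried together. Of the ADCYAP1-high neurons, 51 had all 7 detected, 75.5% had 5 or more and 6 had 2 or fewer (4.32%). Of the 87 other neurons, 5 had 5 or more (5.75%) and 57 had 2 or fewer (65.5%). The 1 other neuron with all 7 came from animal 4 and had ADCYAP1 at 154.2 CPM and TAC1, the precursor of substance P, at 2845 CPM. Of the 12 other neurons with at least 4, 8 had ADCYAP1 between 100 and 200 CPM, and 3 had OSMR above 200 CPM.

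Inside the ADCYAP1-high class GNG8 stood apart from part of the set. GNG8, RBP4 and LTBP1 varied together, with mean within-animal correlations of 0.46 (GNG8 with RBP4), 0.40 (GNG8 with LTBP1) and 0.50 (LTBP1 with RBP4), each positive in 8 of 8 animals. FAIM2, TMEM255A and PARM1 also varied together, with 0.53 for FAIM2 and PARM1, 0.43 for TMEM255A and PARM1 (both positive in 8 of 8 animals) and 0.38 for FAIM2 and TMEM255A (6 of 8). GNG8 had no positive relation to these genes: the mean was -0.04 with TMEM255A, -0.04 with PARM1 and -0.27 ± 0.25 with FAIM2, the last positive in 1 of 8 animals. RBP4 and LTBP1 were not separate from PARM1, with 0.39 and 0.35, near the 0.38 of FAIM2 and TMEM255A. ARG1 went with PARM1 (0.40, positive in 8 of 8) and not with GNG8 (-0.01). These are means over 8 animals, and cells of an animal share culture and library preparation.

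**Figure D3:**
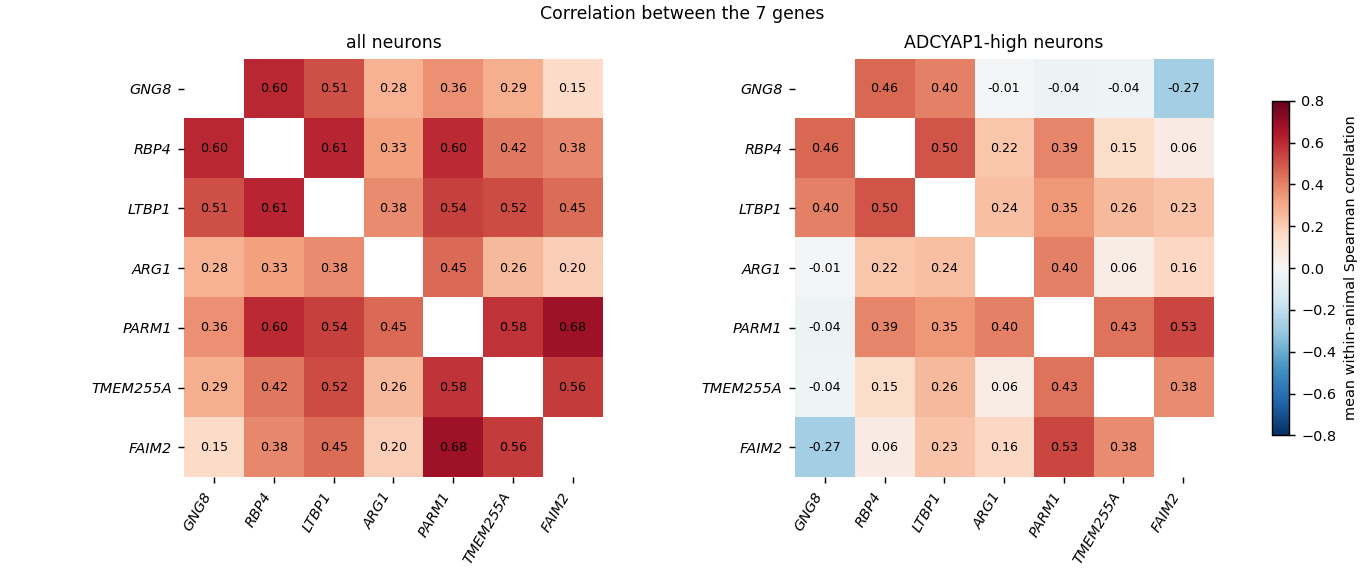
Mean within-animal Spearman correlation between the genes, in all neurons (10 animals, left) and in the ADCYAP1-high neurons (8 animals with at least 6 such cells, right); the colour and the printed number give the mean. On the right GNG8 keeps a positive mean only with RBP4 (0.46) and LTBP1 (0.40) and has -0.27 with FAIM2.

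Which other transcripts differ between ADCYAP1-high neurons with and without one of these genes was asked after these correlations had been seen. The comparison was possible for the 4 members with at least 2 cells on each side in at least 5 animals. Counts were summed per animal and side and tested over all genes with edgeR's quasi-likelihood test with the animal as block and Benjamini-Hochberg adjustment, at an adjusted p under 0.05. GNG8 split the class most evenly, into 81 neurons with it and 58 without, in all 10 animals, and of 19679 other genes 6 were higher and 6 lower in the neurons with GNG8 (0.061%). The median total count was 694213 with GNG8 and 754769 without. For this split and those by the other members, how many of all genes have sums that do not overlap, or that differ the same way in every animal, was not counted.

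Neurons with GNG8 had more MEIS2, a homeodomain transcription factor. The MEIS2 sums ran from 9.88 to 68.4 CPM (median 25.3 CPM) with GNG8 and from 0 to 7.12 CPM (median 0.655 CPM) without, did not overlap, and differed by 4.54 ± 0.62 on the log2 scale (SE; edgeR adjusted p = 0.00855, higher in 10 of 10 animals). SPOCK3, a testican proteoglycan of the matrix, ran from 81.9 to 253 CPM against 18.4 to 74.3 CPM, again without overlap (log2 difference 1.44 ± 0.24, edgeR adjusted p = 0.0465). Its relative SPOCK1 (1.29 ± 0.23, edgeR adjusted p = 0.0465), the chemokine CXCL12 (3.41 ± 0.53, edgeR adjusted p = 0.0330) and the glutamate transporter SLC1A1 (3.80 ± 0.62, edgeR adjusted p = 0.0381) were each higher in 10 of 10 animals. The matrix protease MMP9 also passed, with 4 animals at 0 on both sides.

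5 genes with a symbol were lower in the neurons with GNG8. FMOD, which codes for the collagen-binding proteoglycan fibromodulin, ran from 0 to 6.57 CPM (median 0.804 CPM) with GNG8 and from 0.609 to 130.6 CPM (median 37.02 CPM) without. It was lower in 10 of 10 animals, by a log2 difference of -4.70 ± 0.56 (SE, edgeR adjusted p = 0.00283). CHODL, a membrane lectin, had medians of 24.3 and 183.4 CPM, was lower in 10 of 10 animals, and differed by -2.46 ± 0.34 (edgeR adjusted p = 0.00855). IL31RA, the receptor for the itch cytokine IL-31, had medians of 3.70 and 44.4 CPM and was lower in 10 of 10 animals (-3.38 ± 0.58, edgeR adjusted p = 0.0465). TRPA1, the irritant-gated channel, was lower in 9 of 10 animals, with medians of 38.3 and 161.3 CPM (-1.81 ± 0.32, edgeR adjusted p = 0.0465). PCDH9, a protocadherin, was lower in 10 of 10 (-1.04 ± 0.18, edgeR adjusted p = 0.0465). In single cells, IL31RA was detected in 16.05% of ADCYAP1-high neurons with GNG8 and in 56.9% of those without. TRPA1 was closer there, with 46.91% and 53.45% detected and cell medians of 13.4 and 24.2 CPM. Its cell median within an animal was lower with GNG8 in 7 of 10 animals.

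These calls are near the threshold. When 1 animal at a time was left out, 3 to 10 genes passed in place of 12, and at 1 day of culture alone 1 gene passed. FMOD and CHODL passed in 10 of these 10 fits, MEIS2 in 9 (with an edgeR adjusted p of 0.05 after rounding in the other, without animal 10). MMP9 passed in 5, CXCL12 in 3, and SPOCK1, SPOCK3, SLC1A1, IL31RA, TRPA1 and PCDH9 in 1 of the 10 each. The log2 differences of all 11 named genes kept their direction in every fit made.

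None of the other members passed the adjusted threshold in this comparison. LTBP1 sums were 163.8 to 471 CPM with GNG8 and 9.68 to 162.8 CPM without, higher in 10 of 10 animals, and differed by 1.92 ± 0.34 (edgeR adjusted p = 0.0540). RBP4 had medians of 135.2 and 27.4 CPM, was higher in 9 of 10 animals and differed by 2.78 ± 0.65 (edgeR adjusted p = 0.180). FAIM2 had medians of 74.9 and 93.8 CPM and was lower in 8 of 10 animals (-0.61 ± 0.25, edgeR adjusted p = 0.816). ADCYAP1 had medians of 1974 and 1680 CPM (0.40 ± 0.23, edgeR adjusted p = 0.990). NPPB, a peptide of the OSMR class named here after its values were seen, had medians of 249 and 427 CPM and was lower in 9 of 10 animals (-0.70 ± 0.21, edgeR adjusted p = 0.484).

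**Figure D4:**
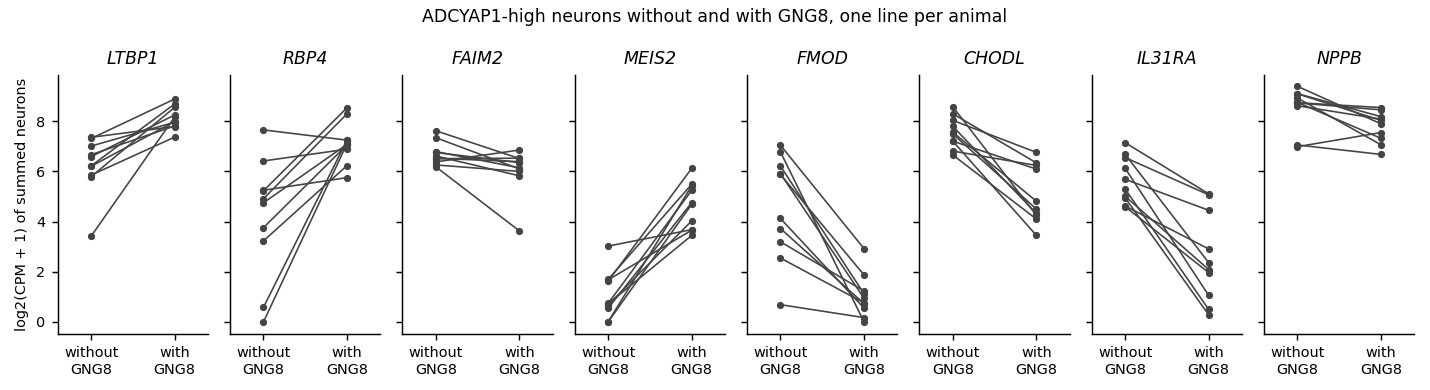
Counts summed over the ADCYAP1-high neurons of an animal without (left) and with (right) GNG8 at 20 CPM or more, on the log2(CPM + 1) scale; each line is 1 of 10 animals. MEIS2 rises and FMOD, CHODL and IL31RA fall in 10 of 10 animals, and FAIM2 falls in 8.

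The same comparison gave 3 genes for LTBP1 (0.0152% of 19697 genes, 7 animals), 2 for RBP4 (0.0102% of 19634, 9 animals) and 0 for FAIM2 (0% of 19131, 5 animals) by edgeR, with 1589, 1549 and 2634 genes at an unadjusted p under 0.05. DESeq2 called 444, 249 and 2246. Neurons with LTBP1 had more CYP1B1, a cytochrome P450 that acts on steroids and retinoids, with sums of 52.6 to 236 CPM against 9.63 to 47.7 CPM that did not overlap (log2 difference 2.56 ± 0.36, edgeR adjusted p = 0.0413). They had more STXBP5L (2.44 ± 0.30, edgeR adjusted p = 0.0211) and less SYNPR, the synaptic vesicle protein synaptoporin (-1.70 ± 0.23, edgeR adjusted p = 0.0413), each in 7 of 7 animals. Neurons with RBP4 had more of the transcription factor EBF2 (4.68 ± 0.58, edgeR adjusted p = 0.00565, 9 of 9 animals) and less PCP4, a calmodulin-binding peptide (-3.17 ± 0.48, edgeR adjusted p = 0.0404, 8 of 9 animals). ADCYAP1 itself had the higher median on the side with the gene in all 3 splits. Its medians were 1949 CPM with LTBP1 and 959.5 CPM without (higher in 7 of 7 animals) and 2115 CPM with RBP4 and 1316 CPM without (8 of 9). With FAIM2 it ran from 1598 to 2462 CPM and without from 621 to 1022 CPM (5 of 5). Its part in these calls was not tested. In the FAIM2 comparison the 66 neurons with FAIM2 had a median total of 749335 counts and the 22 without it 428029, whose part was not tested either.

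Pathway partners of the 7 genes were counted between ADCYAP1-high and other neurons with edgeR, where 1105 of 23972 genes passed (4.61%), 735 higher (3.07%) and 370 lower (1.54%). Of 20 tested retinoid genes other than RBP4, 3 were higher and none lower, among them RDH11, a retinol dehydrogenase (log2 difference 0.63 ± 0.17, edgeR adjusted p = 0.0478), and CRABP1 (3.71 ± 0.64, edgeR adjusted p = 0.00217). TTR, the partner of RBP4 in plasma, differed by -0.13 ± 0.57, and the median of the list was 0.19. Of 22 tested genes of latent TGF-beta binding and signalling other than LTBP1, none passed by edgeR. TGFB2 came nearest (1.06 ± 0.30, edgeR adjusted p = 0.0558), and LTBP2, LTBP3 and LTBP4 had negative differences of -0.69, -0.98 and -0.11.

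Of 10 tested G protein beta and gamma genes other than GNG8, GNG10 was higher (0.86 ± 0.21, edgeR adjusted p = 0.0253) and GNG4 lower. GNB1, a widely expressed beta subunit, differed by 0.09 ± 0.17. Of 12 tested genes around FAIM2 and the death receptors, 2 were higher and 1 lower. CFLAR, which blocks caspase-8 at those receptors, was higher by 1.43 ± 0.17 (edgeR adjusted p = 7.92e-05), while FAIM was lower. FAS itself differed by -0.82 ± 0.25 (edgeR adjusted p = 0.0850).

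Of 20 tested arginine, nitric oxide and polyamine genes other than ARG1, 3 were higher and 1 lower. ASS1, which makes the precursor of arginine, was lower by a log2 difference of -2.27 ± 0.33 (edgeR adjusted p = 0.000585). SAT1, which acetylates polyamines for breakdown (0.86 ± 0.16, edgeR adjusted p = 0.00336), and OAT, which takes up the ornithine that arginase makes (0.76 ± 0.17, edgeR adjusted p = 0.0132), were higher, as was AZIN2. ARG2, the mitochondrial arginase, differed by 0.88 ± 0.25 (edgeR adjusted p = 0.0518). Of 13 tested genes of PACAP production and its receptors, PCSK1, PCSK1N and VGF were higher (VGF by 2.30 ± 0.46, edgeR adjusted p = 0.00688) and the prohormone convertase PCSK2 was lower (-2.82 ± 0.27, edgeR adjusted p = 1.17e-05).

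Because ARG1 is used as a macrophage marker, the macrophage genes were read beside it. Of 12 macrophage genes, 7 were at 0 in over 50% of the ADCYAP1-high neurons, TYROBP, CSF1R, AIF1 and CD163 among them. The summed level of the 12 ran from 0 to 6117 CPM in ADCYAP1-high neurons (median 111.7 CPM) and from 0 to 6222 CPM in the others (median 71.2 CPM). By edgeR, CD68 was higher and FCER1G lower. Within ADCYAP1-high neurons the mean correlation of ARG1 with that sum was 0.07 ± 0.28 (SD, 8 animals), and the median ARG1 was 1276 CPM in the cells below the median of that sum and 1318 CPM in those above it; ARG1 was detected in 82.9% and 92.8%.

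FAIM2 was the member that moved most with genes of another cell type. Within ADCYAP1-high neurons its mean correlation with the summed Schwann cell genes was 0.40 ± 0.31, positive in 7 of 8 animals. Of that list of 9, 5 were at 0 in over 50% of these cells, MBP, PRX, SOX10 and DRP2 among them, and the sum ran from 0 to 2336 CPM (median 910 CPM) against 3.69 to 3272 CPM (median 1204 CPM) in the other neurons. None of the 8 tested satellite glia genes passed between the classes by edgeR. RefSeq annotation of Sscrofa11.1 places RBP4 over PDE6C and TMEM255A over ZBTB33, and the counts carry no strand. PDE6C reached 20 CPM in 3.597% of ADCYAP1-high neurons and ZBTB33 in 43.9%, so a part of either pair's reads cannot be told apart.

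Time in culture was compared within ADCYAP1-high neurons in 17 sums, with 7 animals that had at least 2 such cells at both 1 and 2 days. One gene of 21386 passed (0.00468%), and none of the 7 did. ARG1 came nearest: its sums ran from 182.2 to 1424 CPM (median 839 CPM) at 1 day and from 1793 to 6137 CPM (median 2176 CPM) at 2 days in those 7 animals. The 2 ranges did not overlap, the value was higher at 2 days in 7 of 7 animals, and the log2 difference was 1.94 ± 0.47 (edgeR adjusted p = 0.687). How many of all genes do the same between days was not counted. The lowest sum at 1 day, 182.2 CPM in animal 8, came from 2 cells. With DESeq2 the adjusted p of ARG1 was 0.0222, and in edgeR with no filter on low counts it was 0.00709. LTBP1 had medians of 157.4 and 233 CPM and a log2 difference of 1.15 ± 0.42, higher in 5 of 7 animals. FAIM2 (0.06 ± 0.27) and TMEM255A (-0.03 ± 0.22) had the narrowest errors, and GNG8 (1.13 ± 1.04) and RBP4 (0.41 ± 1.09) were too variable for a difference of that size to be detected. Of the other genes on the lists, none passed.

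Across ages of 11 to 20 weeks, in the 10 sums of ADCYAP1-high neurons at 1 day, 2 of 18162 genes passed (0.0110%) and none of the 7 did. The slopes per week ran from -0.21 ± 0.15 for GNG8 to 0.04 ± 0.04 for TMEM255A on the log2 scale (SE). PARM1 (0.01 ± 0.09), LTBP1 (-0.02 ± 0.06), RBP4 (-0.05 ± 0.16), FAIM2 (-0.07 ± 0.06) and ARG1 (-0.10 ± 0.14) lay between, and without animal 1 the slope of ARG1 was -0.19 ± 0.09 (edgeR adjusted p = 0.760). At 1 day the GNG8 sums ran from 1.64 to 247 CPM over the 10 animals, and the lowest came from 2 cells of the only animal of 20 weeks. No gene on the lists passed either.

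The recordings came with 43 measured columns per cell. No source used here gives their units or definitions, so a gloss below is the usual meaning of the term. Each column was compared between neurons with and without a gene, as a difference within each animal, by limma over all genes and columns. The rule that picked the genes names these relations, so they are a description, over all neurons and among the ADCYAP1-high neurons alike. Of 301 pairs of a member and a column, 33 passed, where 2216 of 394744 pairs of any gene passed (0.561%): 11 for FAIM2, 8 for RBP4, 6 for LTBP1, 4 each for GNG8 and PARM1, and none for TMEM255A or ARG1. Of the 33 pairs, 32 were of a column that also passed for ADCYAP1 itself, which had 16 of 43. Neurons with FAIM2 had a mean cslow (the membrane capacitance read by the amplifier, which follows cell size) of 61.7 ± 12.4 against 92.5 ± 16.2 in neurons without it (SD, n = 10), lower in 10 of 10 animals. Their mean diameter was 35.3 ± 1.67 against 40.5 ± 2.58, and the column headed X20Hz, which runs from 0 to 20, was 18.5 ± 1.65 against 12.9 ± 3.44. Neurons with RBP4 had a cslow of 57.5 ± 16.1 against 85.2 ± 14.2, lower in 9 of 10 animals. With all animals weighted equally 3 pairs passed, and at 1 day of culture 7 did, all of them for FAIM2. RBP4 had none under either setting (smallest limma adjusted p = 0.0584 and 0.065). With the detection limit at 50 CPM, 34 passed, among them 10 for FAIM2, 9 for PARM1 and 3 for ARG1 (smallest limma adjusted p = 0.0248), so the 0 for ARG1 did not hold at that limit, while TMEM255A again had none.

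Among ADCYAP1-high neurons, where the class difference is removed, none of the member pairs passed by limma (3 of 267969 pairs of any gene did, 0.00112%), with 23 at an unadjusted p under 0.05. Of these, 7 were for GNG8, 8 for LTBP1 and 8 for RBP4, of 43 columns each, and 0 for FAIM2, of 37. Over all genes 14368 of the pairs were under 0.05 unadjusted. An exact sign-flip test over animals put 22 under 0.05 unadjusted. TMEM255A, PARM1 and ARG1 left too few cells without the gene to be compared. The cslow difference for FAIM2 was -33.98 over all neurons (95% interval -45.0 to -22.9) and 0.33 here (95% interval -15.8 to 16.5, 5 animals). Of the 33 pairs called over all neurons, 27 could be compared here, and 20 of these had the same sign. The smallest adjusted p was that of LTBP1 and the column Loc_APHW: 3.15 ± 3.88 with LTBP1 and -1.90 ± 4.25 without (SD, n = 7), higher in 6 of 7 animals (limma adjusted p = 0.364, exact sign-flip p = 0.0312, where 7 animals can reach 0.0156). GNG8 had a Rheobase, the smallest current that evokes an action potential, of 143.6 ± 43.2 against 84.8 ± 18.5, higher in 10 of 10 animals (limma adjusted p = 0.903, exact sign-flip p = 0.00195, the smallest 10 animals allow). AP_threshhold, the voltage at which the action potential starts, was -41.9 ± 2.34 against -45.7 ± 2.11 for GNG8, higher in 9 of 10 animals, and -42.4 ± 2.78 against -46.7 ± 4.03 for LTBP1, higher in 7 of 7. These pairs were named after their values were seen, and none passed the adjustment over all genes and columns. The p-values printed with them are therefore part of the description and not a test of the members.

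**Figure D5:**
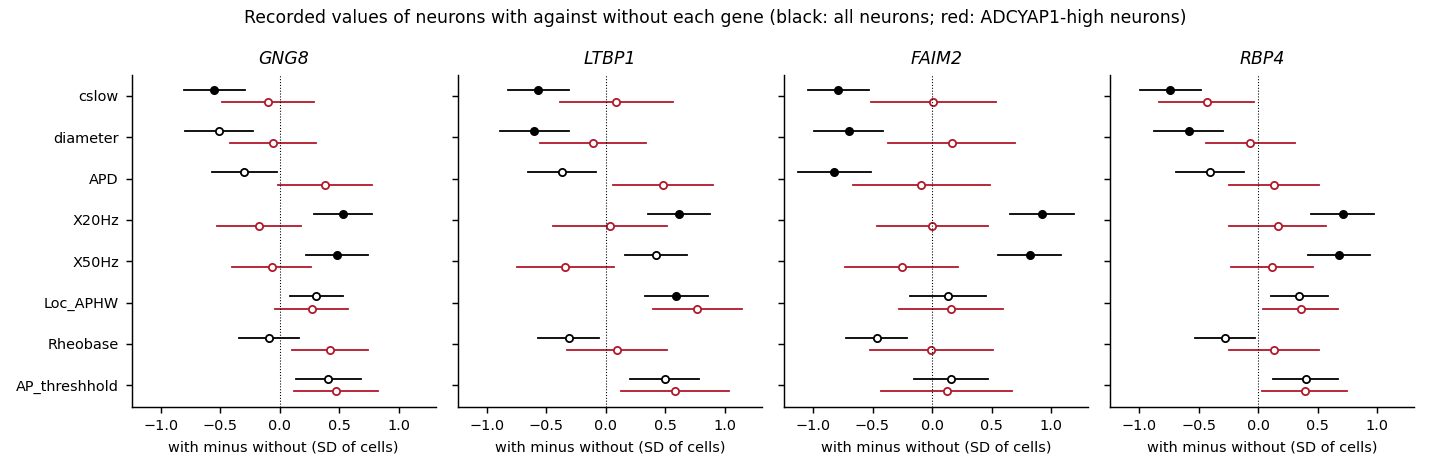
Difference in 8 recorded columns between neurons with and without GNG8, LTBP1, FAIM2 or RBP4, in units of the SD of cells, with 95% intervals from limma; black marks all neurons, red marks ADCYAP1-high neurons, and filled points passed an adjusted p under 0.05. For cslow and X20Hz the black points lie away from 0 and the red intervals include it except that of RBP4 for cslow.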

How the data were processed

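Single-neuron libraries were made with Smart-Seq2, per the labels' protocols, and bcl2fastq 2.20 is named in the submitters' processing notes. Not given in the sources used here: the aligner, the counter and the genome build. The authors deposited estimated counts per gene, of which 52.1% of the nonzero values were not whole, and a table of recordings (deposited values with no unit stated). Counts were turned into CPM per cell, or summed per animal and rounded. Of 30420 identifiers, 14867 matched a symbol. The 226 neurons held 139 ADCYAP1-high and 87 other neurons. Lines of the recording table for 43 cells with no sample here were not used.

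Sums of at least 3 cells (classes) or 2 cells (day, age, splits) were tested with edgeR 4.0.16 (TMM, filterByExpr, quasi-likelihood, Benjamini-Hochberg over all genes, animal as block). DESeq2 1.42.0 was an alternative. Recordings were tested with limma 3.58.1 on per-animal differences weighted by cell number, for pairs with at least 5 animals. Its moderated spread is shared over genes that reuse the same recordings, so the exact two-sided sign-flip p over animals stands beside it. The animal, as numbered in the recording table, is the replicate throughout. The edgeR and limma steps were run on simulated data as a check of the code. The simulated spread was set and not taken from these cells, so that run does not give the error rates here.

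The members and the gene lists were chosen with earlier results of these data known. Named are the members, list genes that passed with a mean log2 CPM over 4 (at most 4 per list), and the 3 genes most correlated with each member, of which some are not reported here; the splits by a member with the genes named in them, the list genes named without a call, and the fits without animal 1 were chosen after their values were seen. The 95% intervals of shares rest on numbers of cells pooled over animals and cover counting error only. Alternatives were other ADCYAP1 and detection limits, thinning to 100000 counts, 1 day only, and leaving animals out.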

Additional observations from a re-analysis of the deposited data

Results flagged for a closer look

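Of 35 sets of 9 or 10 per-animal values checked, 6 held a value far from the rest of its set, where chance gives about 5% of sets. Animal 1 gave 3 of them, all for ARG1: 20.0% of its ADCYAP1-high neurons had ARG1 (next lowest 63.6%), its summed ADCYAP1-high neurons had ARG1 at 4.29 on the log2 CPM scale (next lowest 9.67), and its correlation of ARG1 with ADCYAP1 was -0.51 (next lowest 0.34). Without animal 1 the mean correlation was 0.60 in place of 0.49. Animal 6, with 27 ADCYAP1-high neurons of 31, had a correlation of GNG8 with ADCYAP1 of -0.079, against 0.38 in the next animal. In animal 5, 12.5% of the other neurons had RBP4 (1 of 8 cells), against 5.88% in the next. In animal 10 the 5 other neurons had PARM1 at 6.47 on the log2 CPM scale, against 5.00 in the next.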

How the results depend on the processing

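No member reversed the direction of its log2 difference (class, day or age), class share or mean correlation with ADCYAP1, nor did a gene named as called in the splits. Recorded columns were compared between settings by number of calls only, so a change of sign there was not looked for. Of the 27 called pairs that could be compared in ADCYAP1-high neurons, 20 kept their sign. Shares are percent of the genes tested, counts in brackets. Between ADCYAP1-high and other neurons 4.61% were called (1105), and 9.75% with DESeq2 (2336) and 2.24% at 1 day only (512); without the replicate block (the animal left out) it was 6.35% (1137). Day 2 against day 1 gave 0.00468% (1), and 0.411% with DESeq2 (88), 0.0587% with no filter (17) and 0% without the replicate block. The age slope gave 0.0110% (2), and 0.760% with DESeq2, 0.0282% with no filter (8) and 0% without animal 1. The split by GNG8 gave 0.0610% (12), and 1.31% with DESeq2 (258), 0.210% with no filter (61), 0.0348% at a limit of 10 CPM (7), 0.00540% at 1 day only (1), 0.0872% without the replicate block (12) and 0.0152 to 0.0523% with 1 animal left out (3 to 10). The split by LTBP1 gave 0.0152% (3), and 2.25% with DESeq2 (444), 0.0254% with DESeq2 size factors (5), 0.0521% with no filter (15), 0% at 10 CPM and 0.0350% at 50 CPM (7). The split by FAIM2 gave 0%, and 11.7% with DESeq2 (2246), 0.961% without the replicate block and 0.0482% at 50 CPM (10). The split by RBP4 gave 0.0102% (2), and 1.27% with DESeq2 (249), 0.262% with no filter (76) and 0% at 1 day only. Member pairs with a recorded column numbered 33 over all neurons, and 19 at 10 CPM, 7 at 1 day only, 3 with animals weighted equally and 67 at an unadjusted exact sign-flip p under 0.05; in ADCYAP1-high neurons 0 of the pairs that could be tested were called under each of these but the last, which gave 22. There FAIM2 could not be tested at 10 CPM, nor LTBP1 and FAIM2 at 1 day, nor TMEM255A and ARG1 at any limit, and PARM1 could be tested at 50 CPM alone. The sign-flip test was run for the members and ADCYAP1 only, so its counts have no share over all genes beside them. At 1 day only the difference in the GNG8 share between classes was 35.3 percentage points in place of 47.9; at 10 and 50 CPM that of TMEM255A was 12.2 and 39.2 in place of 23.7, and at 50 CPM that of PARM1 was 58.9 in place of 47.8. Correlations with ADCYAP1 within the class, lower by more than the SD over animals for 6 genes, stand in the report (0.13 for GNG8, 0.51 for LTBP1, 0.39 for FAIM2, 0.34 for RBP4, 0.42 for TMEM255A, 0.58 for PARM1). The causes were not tested. No paired analysis by replicate number was possible because the numbers in the labels run through the series and no 2 groups share one. Splits by LTBP1 and FAIM2 at 1 day, and by FAIM2 at 10 CPM, left too few animals and were not run.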
